A study of Mus musculus with 104 samples.

Results

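The comparison set the anterior amygdala against the posterior amygdala of the adult mouse, taken as the samples titled A_anterior and A_posterior, with 2 arrays each, 4 arrays in a series of 52 regions with 2 arrays each. The mice were male Balb/c, 7 to 8 weeks old, and were bought at 5 weeks and kept for 2 weeks in cycles of 12 hours of light. The labels state sampling in this cycle or in constant darkness without saying which applies to an array. Tissue was punched from both sides of frozen slices 0.5 mm thick, and each array held total RNA pooled over 6 time points 4 hours apart, so daily rhythms are averaged out. Both groups carried the same labels for strain, sex, age and handling, with the light condition of each array not given. The labels set them apart by the place of the punch. Each region was sampled a second time for its other array, and the labels do not say whether the animals differed, so each p measures the spread between such samples.

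The amygdala is a group of nuclei in the temporal forebrain that gives sensory events emotional weight and shapes fear, reward, social and feeding behaviour. Its basolateral nuclei resemble cortex, with glutamate-releasing projection neurons, while the central nucleus resembles striatum, with GABA-releasing neurons that carry peptides, and clusters of GABA-releasing intercalated cells lie between them. The medial and cortical nuclei receive olfactory input and are rich in steroid hormone receptors, and the anterior medial part exchanges fibres and cell lineages with the preoptic area and hypothalamus. A punch mixes these nuclei with fibre tracts and neighbouring tissue, and in such bulk tissue fewer cells of a type cannot be told apart from less RNA per cell.

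The 2 anterior arrays correlated at r = 0.993 over 18193 genes and the 2 posterior arrays at r = 0.996. The median SD between the arrays of a region was 0.08 in the anterior and 0.07 in the posterior amygdala on the log2 scale, ranks 32 and 22 from the lowest among 52 regions. Array medians of the 4 arrays lay between 7.39 and 7.44, and the number of arrays limits the precision. The control probe set for the 5' part of 18S ribosomal RNA differed between the groups, at 7.24 and 6.66 in the anterior arrays and 10.82 and 10.16 in the posterior arrays, against a median of 7.69 over 98 other arrays. The myelin list described further on differed as well. For genes named in the text, it is stated where a call ended when either measure entered the model. Calls of genes not named ended as well.

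The anterior amygdala held more mRNA of the peptide precursors Penk, Cartpt, Nts, Tac1 and Sst, of Slc17a6, the glutamate transporter used in the hypothalamus and thalamus, and of 6 of 12 myelin genes. Among these, the calls of Nts, Tac1, Sst and some myelin genes ended under alternatives given below. The posterior amygdala held more mRNA of Ccn3, Plxnd1 and Rasl10a, and of Slc17a7, the cortical glutamate transporter, whose call ended without anterior replicate 2 and with the myelin list as a covariate. A gene was called when its difference was at least 2-fold and its adjusted p in limma was under 0.05, with the spread between arrays estimated over all 52 regions. Of 18193 genes, 105 were called higher in the anterior amygdala (0.577%) and 42 higher in the posterior amygdala (0.231%), together 147 (0.808%). At any fold, limma's adjusted p passed for 952 genes higher in the anterior (5.23%) and 579 higher in the posterior amygdala (3.18%). The median difference of all genes, anterior minus posterior as everywhere below, was -0.02 on the log2 scale. Both arrays of one group lay above both of the other for each of the 147 called genes, which also held for 24.2% of all genes with the anterior and 29.4% with the posterior arrays above. In 43 called genes the lower mean lay under the median of all values, 7.39, so that the size of their fold is uncertain. This applies to Irs4, Gprin3, Foxp2, Rspo1, Cd83, Rasl10a, Krt12, Tbr1, Calcr, Grik1, Cldn11, Ugt8a, Egr2, Ptprc, Pnoc and Met among the genes named below.

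**Figure D1:**
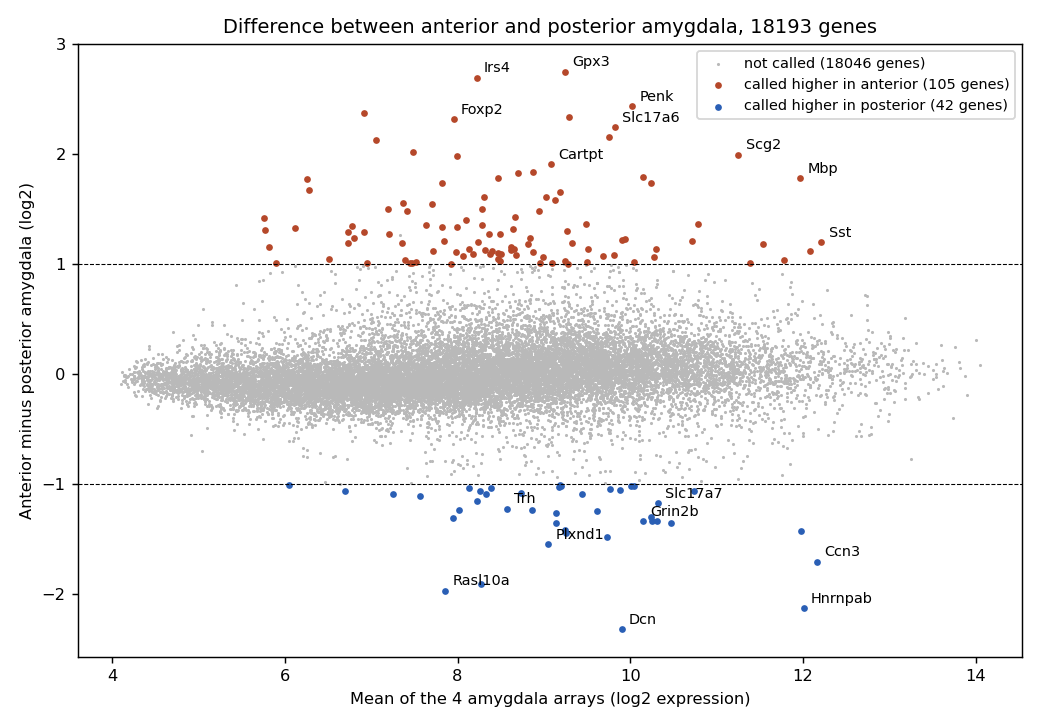
Each point is a gene, with the mean log2 expression of the 4 amygdala arrays on the horizontal axis and the log2 difference, anterior minus posterior, on the vertical axis; dashed lines mark 2-fold. The 105 genes called higher in the anterior amygdala reach 2.75 (Gpx3) and the 42 called higher in the posterior amygdala reach -2.32 (Dcn).

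Among genes of the central amygdala, the called ones were neuropeptides. Of 26 measured central amygdala genes, 5 were called higher in the anterior amygdala, 0 higher in the posterior, and the median of the list was 0.20 beside -0.02 for all genes. At any fold limma's adjusted p passed for 8 higher in the anterior (5.23% of all genes) and 1 higher in the posterior (3.18%). All 5 called genes encode peptide precursors. Their promoters are shown for 4, from 250 bases before to 50 bases after the start of transcription in RefSeq (GRCm38.p6), because the cAMP response element is a known control element of peptide genes such as Sst. Their shared direction follows from the choice of called genes, and they differed from one another in other respects given below. Capitals mark TGACGTCA, the full element, and TGACG or its reverse complement CGTCA, the half-site, of which a full element holds one on each strand. The windows are chr16:23890795-23891094 for Sst, chr10:102490369-102490668 for Nts and chr13:99900634-99900933 for Cartpt, all on the minus strand, and chr6:7554811-7555110 on the plus strand for Tac1.
Sst: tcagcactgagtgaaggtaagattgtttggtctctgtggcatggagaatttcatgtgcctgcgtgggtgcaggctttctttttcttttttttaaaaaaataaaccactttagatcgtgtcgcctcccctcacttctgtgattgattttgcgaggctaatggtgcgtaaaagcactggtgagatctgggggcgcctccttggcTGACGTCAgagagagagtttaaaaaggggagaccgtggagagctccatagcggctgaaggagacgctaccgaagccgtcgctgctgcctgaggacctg
Cartpt: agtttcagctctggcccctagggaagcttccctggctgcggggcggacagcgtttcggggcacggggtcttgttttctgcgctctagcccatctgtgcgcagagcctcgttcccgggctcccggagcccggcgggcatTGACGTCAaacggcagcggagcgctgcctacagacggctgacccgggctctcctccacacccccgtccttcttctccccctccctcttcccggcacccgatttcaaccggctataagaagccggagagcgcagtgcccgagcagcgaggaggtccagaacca
Nts: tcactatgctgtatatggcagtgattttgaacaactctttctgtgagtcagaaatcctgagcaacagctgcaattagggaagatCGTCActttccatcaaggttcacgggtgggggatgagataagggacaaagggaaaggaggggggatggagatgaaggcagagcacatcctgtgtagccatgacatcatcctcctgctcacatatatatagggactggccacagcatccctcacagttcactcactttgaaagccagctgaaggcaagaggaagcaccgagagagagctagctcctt
Tac1: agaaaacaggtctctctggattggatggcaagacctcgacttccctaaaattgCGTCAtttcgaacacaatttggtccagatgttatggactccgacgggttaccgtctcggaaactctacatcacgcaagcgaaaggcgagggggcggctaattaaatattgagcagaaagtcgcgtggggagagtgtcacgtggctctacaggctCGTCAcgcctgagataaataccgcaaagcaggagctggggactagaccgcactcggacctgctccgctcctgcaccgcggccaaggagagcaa
The full element stood 48 bases before the start in Sst and 112 bases before it in Cartpt. Half-sites outside a full element began 166 bases before the start in Nts and 197 and 43 bases before it in Tac1. Over 32851 mouse promoters of the same length, 1.79% held the full element and 20.8% a half-site on either strand.

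Penk, the precursor of the opioid enkephalins, read 11.47 and 11.01 in the anterior arrays and 9.01 and 8.60 in the posterior arrays. The groups stood well apart, and Penk was 5.41-fold higher in the anterior amygdala, with a log2 difference of 2.44 ± 0.27 (SE) and an adjusted p of 3.55e-10 in limma. Cartpt, the precursor of the feeding-related CART peptides, lay at 10.16 and 9.92 in the anterior and at 8.12 and 8.13 in the posterior arrays, a difference of 1.91 ± 0.21 (limma adjusted p = 4.14e-10). Nts, the precursor of neurotensin, lay at 9.71 and 8.52 in the anterior and at 7.75 and 7.25 in the posterior arrays. Its anterior arrays differed from each other by more than the lower one differed from posterior replicate 1, and its difference was 1.61 ± 0.26 (limma adjusted p = 5.8e-06). Without anterior replicate 1 the Nts difference was 1.02. Tac1, the precursor of substance P, lay at 11.50 and 11.44 in the anterior and at 10.24 and 9.98 in the posterior arrays. Its difference of 1.36 ± 0.32 (limma adjusted p = 0.00248) rested on 1 of its 2 probe sets, the other being at -0.20 and the mean of both at 0.58. Without posterior replicate 2 Tac1 had an adjusted p of 0.062 in limma, and with the myelin list as a covariate 0.174.

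Sst, the precursor of somatostatin, which marks inhibitory neurons of the central nucleus and of the cortex, lay at 12.61 and 13.02 in the anterior and at 11.72 and 11.51 in the posterior arrays. The difference was 1.20 ± 0.29 (limma adjusted p = 0.00405), and the anterior amygdala ranked 2 of 52 regions for Sst, after the medial preoptic area (13.09). Without anterior replicate 2 the Sst difference was 0.99 with a limma adjusted p of 0.107, and without posterior replicate 2 the adjusted p was 0.0756. Other markers of the central nucleus were not called by their chosen probe set. Second probe sets of Drd1 (1.68) and Nr2f2 (1.10), both on the list, were called higher in the anterior amygdala. Prkcd, a protein kinase C that marks neurons of its lateral part, read 8.56 and 8.10 in the anterior and 8.09 and 8.29 in the posterior arrays, with overlapping groups, a difference of 0.15 and a limma adjusted p of 0.656. The anterior and posterior amygdala ranked 32 and 45 of 52 regions for Prkcd, so this marker singled out neither. Crh, the precursor of the stress hormone corticotropin-releasing hormone, stood at 7.38 in anterior replicate 1 and at 5.19 in anterior replicate 2, against 5.45 and 5.28 in the posterior arrays. Tac2, the precursor of neurokinin B, likewise stood at 8.69 and 6.97 in the anterior arrays, on either side of 7.94 and 8.30 in the posterior arrays. Neither gene was called, at limma adjusted p of 0.0928 for Crh and 0.536 for Tac2, and both were named after their values were seen. Without anterior replicate 2 Crh was called at 2.01, and without anterior replicate 1 Tac2 was called at -1.16. The anterior replicates differed in several of these peptides, mostly with replicate 1 higher. Penk, Cartpt, Nts, Crh and Tac2 were higher in replicate 1, Sst was higher in replicate 2, and Tac1 was nearly equal in both. The mean of the central amygdala list was 8.96 in anterior replicate 1 and 8.62 in anterior replicate 2.

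Genes of the projection neurons of the basolateral nuclei were called on the posterior side. Of 25 measured genes of basolateral glutamatergic neurons, 3 were called higher in the posterior (0.231% of all genes) and 0 in the anterior amygdala (0.577%). The list median was -0.31. At any fold limma's adjusted p passed for 9 higher in the posterior (3.18% of all genes) and 1 higher in the anterior (5.23%). Slc17a7, the vesicular glutamate transporter VGLUT1 of cortical and basolateral neurons, lay at 9.98 and 9.49 in the anterior and at 10.87 and 10.95 in the posterior arrays. It was 2.26-fold higher in the posterior amygdala (-1.17 ± 0.27, limma adjusted p = 0.00172). Without anterior replicate 2 the value was -0.93 with a limma adjusted p of 0.089, and with the myelin list as a covariate it was -1.10 with 0.09. Neurod1, a transcription factor of excitatory neurons, lay at 8.05 and 8.87 in the anterior and at 9.67 and 9.97 in the posterior arrays, a difference of -1.36 ± 0.41 (limma adjusted p = 0.0254). Its second probe set gave -1.53, yet its adjusted p rose above the threshold when any of 3 arrays was left out: 0.304 without anterior replicate 1, 0.0672 without posterior replicate 1 and 0.184 without posterior replicate 2. It was also not called with 18S (limma adjusted p = 0.102) or the myelin list (0.671) as a covariate. Tbr1, a transcription factor of cortical projection neurons, lay under the median of all values in all 4 arrays, at 5.65 and 5.43 against 6.55 and 6.55, and just past 2-fold (-1.01). Tbr1 fell short of 2-fold without anterior replicate 2 (-0.90) and after array centring (-0.99) or quantile normalization (-0.95).

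Most of the basolateral list did not reach a call. For Cdh13, a probe set other than the chosen one was called at -1.06. Camk2a, a kinase of excitatory synapses, lay between 12.83 and 13.02 in the 4 arrays with a difference of 0.03. Mef2c, a transcription factor of cortical neurons, was at -0.56 (limma adjusted p = 0.0595) and Nrn1, which promotes neurite growth, at -0.27 (0.516). Satb1, a chromatin organiser on the same list, pointed the other way at 0.98 with a limma adjusted p of 0.00274, just short of 2-fold. It was past 2-fold after array centring (1.00) and without anterior replicate 2 (1.12) or posterior replicate 1 (1.16). Rspo2 and Ppp1r1b are used in the field to mark neurons of the anterior and of the posterior basolateral nucleus respectively. Rspo2, a secreted activator of Wnt signalling, read 7.79 and 6.76 in the anterior and 8.30 and 7.65 in the posterior arrays. Its groups overlapped, its difference was -0.70 ± 0.23 (limma adjusted p = 0.0397), lower in the anterior amygdala and short of 2-fold, and its other probe set gave -0.01. Without anterior replicate 1 Rspo2 was called at -1.22, without posterior replicate 2 at -1.03, and without anterior replicate 2 it stood at -0.19. Ppp1r1b, the dopamine-regulated phosphatase inhibitor DARPP-32, read 9.20 and 8.93 in the anterior and 9.19 and 8.97 in the posterior arrays, a difference of -0.02 ± 0.17 (limma adjusted p = 0.97). The marker pair therefore did not divide these punches in the direction known for the basolateral nucleus.

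Across all regions Rspo2 was highest in the ventral subiculum (9.85 ± 0.24, SD, n = 2), followed by cingulate (9.40 ± 0.24) and motor cortex (9.08 ± 0.57), the last of which does not stand apart from its neighbours in that order beyond their spread. The posterior amygdala ranked 9 (7.98 ± 0.46) and the anterior amygdala 17 (7.27 ± 0.73). Ppp1r1b was highest in the lateral (13.30 ± 0.04) and medial caudate putamen (13.06 ± 0.14) and far lower in both parts of the amygdala, at ranks 16 and 15. The genes whose region means were most like those of Rspo2 over the 52 regions were Prss12 (Pearson r = 0.71), Psrc1 (0.70) and Fezf2 (0.68). For Ppp1r1b they were Adamts3 (0.86), Cd4 (0.84) and Drd1 (0.84). These correlations describe regions that share arrays and processing.

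Slc17a6, the vesicular glutamate transporter VGLUT2, moved against Slc17a7. It lay at 10.81 and 11.07 in the anterior and at 8.67 and 8.72 in the posterior arrays. The groups were far apart and the difference was 2.25 ± 0.24 (limma adjusted p = 3.04e-10), with its second probe set at 2.90. Among the regions, Slc17a6 reached 12.42 ± 0.02 in the dorsomedial hypothalamic nucleus and 12.27 ± 0.04 in the ventromedial nucleus, while Slc17a7 reached 11.52 ± 0.13 in the piriform cortex and 11.73 ± 0.13 in CA1 of the hippocampus. The anterior amygdala, at 10.94 for Slc17a6 and 9.74 for Slc17a7, lay below the first pair of regions for Slc17a6 and below the second pair for Slc17a7.

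**Figure D2:**
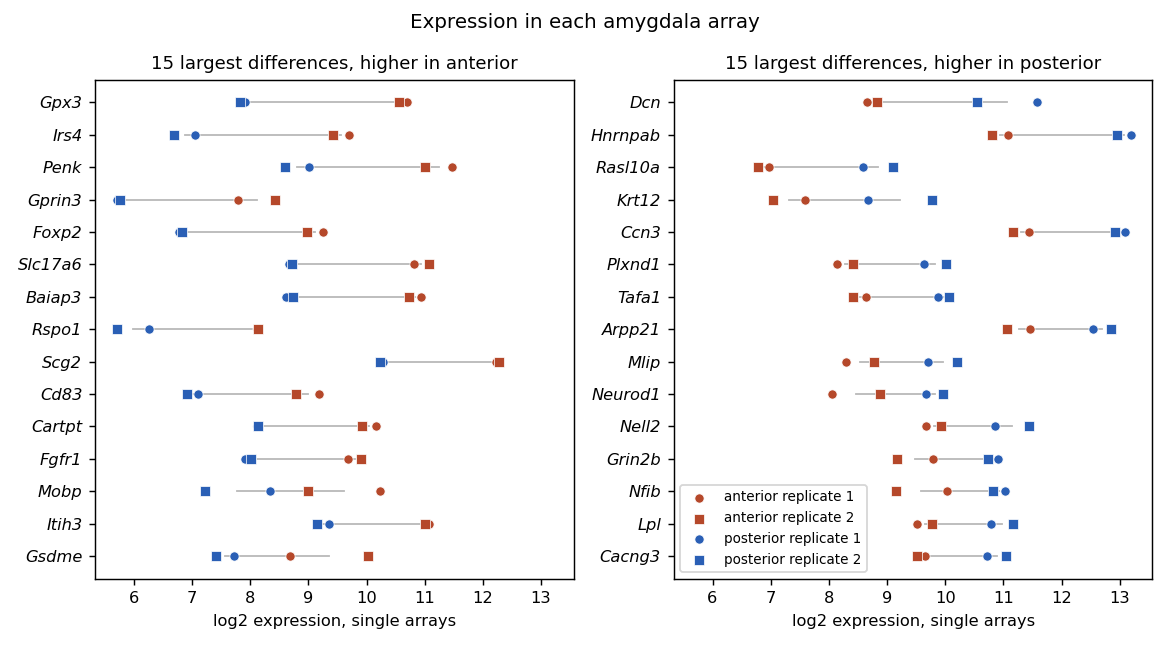
Log2 expression of the 15 called genes that differed most on each side, 1 symbol per array and a line between the group means. The groups do not overlap for any of the 30 genes; the anterior replicates of Gsdme (8.68 and 10.03) and both pairs of Mobp lie far apart from each other.

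The 15 largest differences on the anterior side were led by Gpx3 and Irs4. Gpx3, a secreted glutathione peroxidase, lay at 10.69 and 10.56 in the anterior and at 7.92 and 7.83 in the posterior arrays, 6.73-fold apart (2.75 ± 0.15, limma adjusted p = 4.29e-22). Irs4, an insulin receptor substrate found in the hypothalamus, lay at 9.71 and 9.43 against 7.05 and 6.69, a difference of 2.70 ± 0.28, with its other probe set at 0.23. Baiap3, which takes part in the release of dense-core vesicles, lay at 10.93 and 10.73 against 8.61 and 8.73 (2.15 ± 0.18). The groups did not overlap for these 3 genes, and the replicates of Irs4 lay further apart than those of Gpx3 and Baiap3. Scg2, the dense-core vesicle protein secretogranin II, lay at 12.22 and 12.28 against 10.27 and 10.23. Its posterior mean was the lowest of the 52 regions, and its difference was 2.00 ± 0.18.

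Foxp2, a transcription factor of striatal, intercalated and medial amygdala neurons, lay at 9.25 and 8.98 in the anterior and at 6.77 and 6.83 in the posterior arrays. The posterior amygdala ranked 52 of 52 for Foxp2, and 3 of its 6 probe sets were called, in a range from -0.13 to 2.32. Gprin3, a G protein regulator of striatal neurons, was at 2.38 (other probe set -0.04), and Rspo1, a Wnt activator related to Rspo2, at 2.13. Cd83, an immune surface protein, was at 1.99, and Fgfr1, a fibroblast growth factor receptor, at 1.83 with probe sets down to 0.21. Itih3, which binds hyaluronan in the matrix, was at 1.79. Gsdme, a pore-forming gasdermin, was at 1.79 too, but at 1.11 with a limma adjusted p of 0.0801 without anterior replicate 2. The remaining gene of the 15, Mobp, belongs to myelin.

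The 15 largest differences on the posterior side included Ccn3, Plxnd1 and Rasl10a. Ccn3, a matricellular protein, lay at 11.44 and 11.17 in the anterior and at 13.09 and 12.93 in the posterior arrays. The posterior amygdala held the highest mean of the 52 regions, ahead of the ventral subiculum (12.72), and the difference was -1.71 ± 0.30 (limma adjusted p = 3.18e-05; second probe set -1.65). Plxnd1, the plexin receptor for semaphorin 3E, lay at 8.14 and 8.41 in the anterior and at 9.63 and 10.01 in the posterior arrays, where only the piriform cortex (10.13) ranked above (-1.54 ± 0.12). Rasl10a, a small GTPase of neurons, lay at 6.98 and 6.77 in the anterior and at 8.58 and 9.11 in the posterior arrays (-1.97 ± 0.15). These 3 genes kept their calls under all alternatives run. Krt12, a keratin, was at -1.91 with its second probe set at -1.40.

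Synaptic genes were among them. Grin2b, the NMDA receptor subunit GluN2B, lay at 9.80 and 9.17 in the anterior and at 10.91 and 10.73 in the posterior arrays, a difference of -1.34 ± 0.22, but its 4 probe sets ranged up to 0.03 and their mean gave -0.55. Cacng3, an auxiliary subunit of AMPA receptors, was at -1.30, and at -0.99 with the myelin list as a covariate. Arpp21, a phosphoprotein of striatal and cortical neurons, was at -1.43 with 2 of 5 probe sets called and a probe set mean of -0.57. Tafa1, a secreted protein of neurons, was at -1.44 and the neuronal secreted protein Nell2 at -1.35, where the mean of its 2 probe sets was -0.81. Mlip was at -1.42 with a probe set mean of -0.74. The lipoprotein lipase Lpl was at -1.33, with its other probe set at -0.79.

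Some large posterior values rested on few probe sets. Dcn, the matrix proteoglycan decorin, lay at 8.66 and 8.82 in the anterior and at 11.57 and 10.55 in the posterior arrays (-2.32 ± 0.24), while its other probe set gave -0.12. Dcn is a marker of meninges and fibroblasts, and it was the 1 called gene among 11 measured members of that list, whose median was -0.14. Col1a2 was at -0.10, Bgn at -0.14 and Igf2 at -0.19, none of them called. Hnrnpab, an RNA-binding protein, was at -2.13, but 1 of its 7 probe sets was called, the others reached up to 0.01, and their mean was -0.44. Nfib, a transcription factor of developing cortex and hippocampus, was at -1.33 with 1 of 7 probe sets called. Without anterior replicate 2 Nfib was at -0.89 with a limma adjusted p of 0.309, and without posterior replicate 1 or 2 its adjusted p was 0.126 or 0.0702. Nfib also missed the adjusted p with the 3' to 5' ratios of control probe sets (0.0646) or with 18S (0.0655) as covariates.

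Lists of inhibitory neurons had few called members, all on the anterior side, and small positive medians. Of 21 genes of GABA neurons, 2 were called higher in the anterior (0.577% of all genes) and 0 in the posterior amygdala (0.231%). The list median was 0.33. At any fold limma's adjusted p passed for 6 higher in the anterior (5.23% of all genes) and 1 higher in the posterior (3.18%). Adarb2 was not called, while another of its probe sets was, at 1.05. Slc32a1, which loads GABA into vesicles, lay at 10.91 and 10.20 in the anterior and at 9.44 and 9.62 in the posterior arrays (1.02 ± 0.27, limma adjusted p = 0.00949). Slc32a1 was at 0.67 without anterior replicate 1 (0.257) and at 0.94 without posterior replicate 1 (0.0991), and the mean of its 4 probe sets was 0.27. Its call also ended after quantile normalization (0.95), in the 4 amygdala arrays alone (adjusted p = 0.0527) and with the myelin list as a covariate (0.202). The second called gene was Sst. Gad1 and Gad2, the enzymes that make GABA, were at 0.56 (limma adjusted p = 0.24) and 0.59 (0.0914) and were not called. Reln, a secreted matrix protein of interneurons and cortical cells, was at -0.58 (0.00279), below 2-fold.

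Of 10 genes of intercalated cells, 2 were called higher in the anterior amygdala, Foxp2 and Penk, with a list median of 0.15. At any fold limma's adjusted p passed for 4 of them higher in the anterior and 1 higher in the posterior amygdala. Tshz1, a transcription factor of these cells, lay between 9.70 and 10.16 in the 4 arrays, a difference of -0.02. Of 23 genes of striatal medium spiny neurons, again 2 were called higher in the anterior amygdala, Penk and Tac1, with a median of 0.19. In this list 4 genes passed limma's adjusted p at any fold higher in the anterior and 2 higher in the posterior amygdala. Adcy5, a striatal adenylyl cyclase, was at 0.54 (limma adjusted p = 0.000112), the cortical and striatal transcription factor Bcl11b at -0.76 (0.0041), and Gng7, a striatal G protein subunit, at 0.02 (0.95). Drd1, the D1 dopamine receptor, was at 0.71, its other probe set gave 1.68, and the mean of both, 1.20, was called. Rasgrp2 was not called, while another of its probe sets was, at 1.14. Penk was the 1 called gene of the 14 pallidal and basal forebrain genes, whose median was 0.02. Zic1, a transcription factor on that list, was the 1 gene of the array past 2-fold that missed the adjusted p (1.27, limma adjusted p = 0.0576), and it was named after its value was seen.

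In the medial amygdala and steroid-sensitive list of 20 genes, Foxp2 was called higher in the anterior and Trh in the posterior amygdala, with a median of 0.11. Trh, the precursor of thyrotropin-releasing hormone, lay at 7.93 and 7.98 in the anterior and at 8.87 and 9.50 in the posterior arrays (-1.23 ± 0.17), and at -0.91 without posterior replicate 2 or with the myelin list as a covariate. The oestrogen receptor gene Esr1 lay at 9.03 and 9.40 in the anterior and at 8.93 and 9.10 in the posterior arrays, a difference of 0.19 (limma adjusted p = 0.655). Both parts were high for Esr1, at ranks 5 and 6 of 52. The progesterone receptor gene Pgr was at 0.31 (0.092), and Ucn3, a stress-related peptide of the medial amygdala, at 0.83 (4.97e-06), below 2-fold. Without anterior replicate 2 Ucn3 was called at 1.24. The anterior amygdala ranked 2 of 52 for Ucn3, after the paraventricular nucleus.

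Among 45 receptors for peptides and amines, Calcr, the calcitonin and amylin receptor, was the 1 called gene, and the list median was 0.02. Probe sets other than the chosen ones were called higher in the anterior amygdala for Drd1 (1.68), Tacr3 (1.02) and Htr1b (1.02). Calcr lay at 7.49 and 6.74 in the anterior and at 5.45 and 5.42 in the posterior arrays (1.68 ± 0.32, limma adjusted p = 0.000133). The serotonin receptor Htr2c was at 0.71 (0.151), the neurotensin receptor Ntsr2 at 0.62 (3.35e-05) and the cannabinoid receptor Cnr1 at 0.03 (0.963). Of 31 subunits of glutamate and GABA-A receptors, 3 were called higher in the anterior amygdala and 1, Grin2b, in the posterior, with a median of 0.01. Gabrg3 and Grm5 were not called, while another probe set of each was, at 1.26 and -1.17. The kainate receptor subunit Grik3 lay at 9.24 and 8.67 against 8.01 and 7.20 (1.35 ± 0.26), and Grik1 at 7.91 and 8.04 against 6.91 and 7.02 (1.01 ± 0.17). The GABA-A subunit Gabrg1 lay at 10.41 and 9.75 against 9.14 and 8.73 (1.14 ± 0.17), with its second probe set at 1.21. The groups were apart for these 3 genes but close to 2-fold. Grik3 was not called without posterior replicate 2 (0.95), nor in the 4 amygdala arrays alone (adjusted p = 0.0509). Grik1 was not called without anterior replicate 2 (0.95) or posterior replicate 1 (0.96), and Gabrg1 not without anterior replicate 1 (0.81) or posterior replicate 2 (0.94). The other probe sets of Grik1 and Grik3 were at -0.33 and -0.07.

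Guidance and adhesion genes were called in both directions. Of 53 axon guidance genes, Sema5a, Nrp1 and Tenm3 were called higher in the anterior amygdala and Plxnd1 higher in the posterior, with a median of 0.05. Tenm3, a teneurin that matches axons to targets, lay at 9.40 and 9.64 in the anterior and at 8.81 and 8.10 in the posterior arrays (1.07 ± 0.20). Sema5a, a semaphorin, was at 1.43 and Nrp1, a semaphorin receptor, at 1.11. Each of these 3 anterior calls depended on an array: without anterior replicate 2 Sema5a was at 0.82 and Tenm3 at 0.95, and without posterior replicate 2 Nrp1 was at 0.60 and Tenm3 at 0.71. Of 26 cadherins, Cdh8 was called (1.12 ± 0.23, with probe sets down to -0.05 and their mean at 0.51), and the median was 0.11. Pcdh17, Pcdh20 and Cdh13 were not called, while another probe set of each was, at 1.06, 1.08 and -1.06. With the myelin list as a covariate Nrp1 was at 0.55 (limma adjusted p = 0.404), Tenm3 at 0.68 (0.189) and Cdh8 at 1.00 (0.0726), and with 18S as a covariate Nrp1 was at 0.98. The protocadherin Pcdh8 lay between 11.94 and 12.18 in the 4 arrays, and the posterior and anterior amygdala ranked 1 and 2 of 52 regions for it, with a difference of -0.03 ± 0.20 between the parts. Pcdh9 was at -0.75 (limma adjusted p = 0.000433). None of 54 potassium channel genes was called, with a median of -0.02, while 7 passed limma's adjusted p higher in the anterior and 3 higher in the posterior amygdala, and 11 and 10 had an unadjusted p under 0.05. Other probe sets of Kcnv1 (-1.81 and -1.05) and Kcnma1 (-1.89) were called higher in the posterior amygdala.

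**Figure D3:**
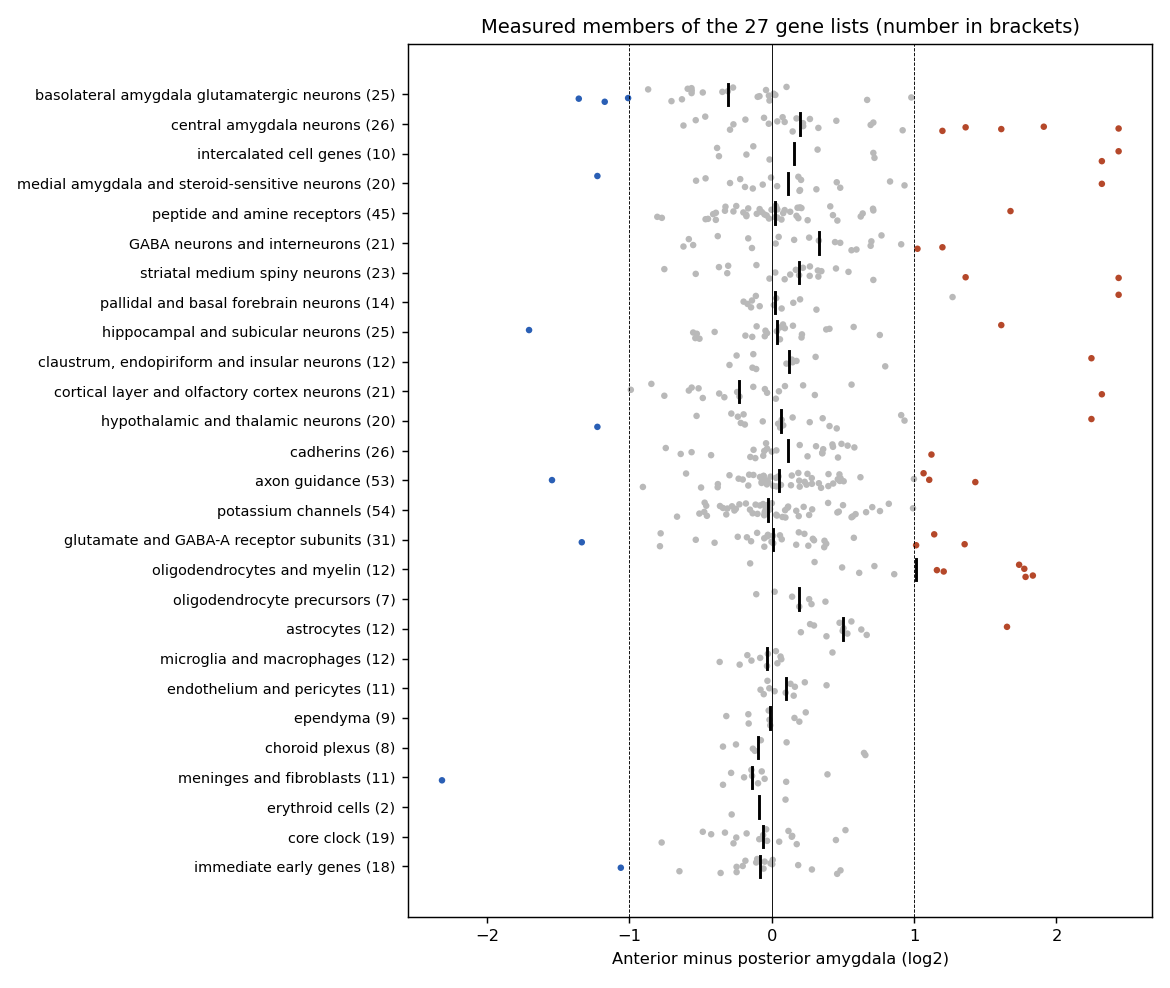
Each point is a measured gene of 1 of the 27 lists, placed by its log2 difference, anterior minus posterior; black bars are list medians, coloured points are called genes and dashed lines mark 2-fold. The myelin list has its median at 1.01 and the basolateral list at -0.31, and genes that belong to several lists appear in each.

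Myelin was the list with the highest median. Of 12 measured genes of oligodendrocytes and myelin, 6 were called higher in the anterior amygdala and 0 in the posterior, with a median of 1.01. Mbp, myelin basic protein, lay at 13.11 and 12.61 in the anterior and at 11.55 and 10.60 in the posterior arrays (1.78 ± 0.16, limma adjusted p = 5.11e-13), with 6 of 8 probe sets called. Mobp, another myelin protein, lay at 10.24 and 8.99 against 8.34 and 7.22, so that its anterior replicate 2 lay nearer to posterior replicate 1 than to its own replicate. Cldn11, the claudin of myelin (1.77), Ugt8a, which makes its galactolipids (1.74), the enzyme Cnp (1.21) and the membrane protein Mal (1.16) were the others. Without anterior replicate 1 Cnp was at 0.99 and Mal at 0.51, and without posterior replicate 2 Mal was at 0.67. Mobp was at 1.21 without anterior replicate 1, and Mal at 1.81 without anterior replicate 2.

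The list mean stood at 8.97 and 8.29 in the anterior and at 7.81 and 7.39 in the posterior arrays, and the anterior and posterior amygdala ranked 46 and 50 of 52 regions, so both ranked low for myelin among the regions. Of 7 genes of oligodendrocyte precursors 0 were called in limma, with a median of 0.19, and 2 had an unadjusted p under 0.05, both higher in the anterior amygdala. With the list mean as a covariate, an alternative chosen after seeing the data, Penk remained at 2.36, Slc17a6 at 2.00 and Gpx3 at 2.65, all called. In that fit 114 genes were called higher in the anterior amygdala, 72 of them among the 105, and 39 in the posterior, 25 of them among the 42. Among the genes named so far, the calls of Neurod1, Cacng3, Slc17a7, Tac1, Trh, Slc32a1, Cdh8, Nrp1 and Tenm3 ended in that fit, and with 18S as a covariate those of Neurod1, Nfib and Nrp1. In a fit of the 4 amygdala arrays alone the calls of Mobp, Gsdme, Nts, Slc32a1, Sema5a, Nrp1, Tenm3, Grik3 and Mal ended. With the mean of all probe sets of a gene the calls of Hnrnpab, Arpp21, Mlip, Nell2, Grin2b, Nfib, Tac1, Slc32a1, Cdh8, Sema5a, Nrp1, Grik1, Grik3 and Mal ended, as did that of Egr2, described further on.

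Astrocyte genes lay on the same side. Of 12 measured members 1 was called, Agt, the precursor of angiotensin, at 9.86 and 10.17 in the anterior and at 8.22 and 8.51 in the posterior arrays (1.65 ± 0.17). The list median was 0.50, and 7 of the 12 passed limma's adjusted p at any fold, among them the gap junction gene Gja1 (0.50) and the glutamate transporter Slc1a3 (0.50). Slc1a2, the main astrocyte glutamate transporter, was at 0.20 (0.217). None was called among 12 microglia, 11 endothelial, 9 ependymal, 8 choroid plexus and 2 erythroid genes, with medians between -0.10 and 0.10, although a second probe set of the choroid plexus gene Clic6 was called at 1.48 (chosen probe set 0.10). At any fold limma's adjusted p passed for 0 of these genes higher in the anterior and 1 microglial (Csf1r, -0.37) and 1 erythroid gene (Hba-a1, -0.28) higher in the posterior amygdala, and at an unadjusted p under 0.05 each list had at most 1 gene in either direction. Ptprc, the leukocyte surface phosphatase CD45, is on none of these lists and was named after its value was seen. It lay at 7.59 and 6.49 in the anterior and at 6.13 and 5.86 in the posterior arrays and was called at 1.05 ± 0.28 (limma adjusted p = 0.00873). Without anterior replicate 1 Ptprc was at 0.50 (0.427), without posterior replicate 2 at 0.91 (0.128), with the myelin list as a covariate at 0.46 (0.667), and its call also ended with the mean of its probe sets (0.56) and in the 4 amygdala arrays alone (adjusted p = 0.126). Without anterior replicate 2 it was at 1.59. The part of cell composition in the neuronal differences was not tested beyond the myelin covariate.

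Apart from the striatal list described above, each list of neighbouring tissue had at most 1 called gene on each side. Among 25 hippocampal and subicular genes, Nts was called higher in the anterior and Ccn3 in the posterior amygdala, with a median of 0.04. C1ql3 was not called, while another of its probe sets was, at -1.15. Slc17a6 was the called gene among 12 claustral and insular genes (median 0.12), and Foxp2 among 21 genes of cortical layers (median -0.23). Lhx2, a cortical transcription factor, came close on the posterior side at -0.99 (limma adjusted p = 0.000356), as named after its value was seen. Slc17a6 and Trh were the called genes of the 20 hypothalamic and thalamic genes (median 0.06). Otp, a transcription factor of hypothalamic and medial amygdala neurons, was at 0.93 (9.71e-05), and 1.19 with the myelin list as a covariate. None of 19 core clock genes was called (median -0.06), with 2 past limma's adjusted p in the anterior and 1 in the posterior direction and 2 and 3 with an unadjusted p under 0.05. Of 18 immediate early genes, Egr2 was called higher in the posterior amygdala, at 6.05 and 6.29 against 7.07 and 7.39 (-1.06 ± 0.20), and Egr1 (-0.06) and Nr4a1 (-0.01) were not called. Egr2 fell short of 2-fold without anterior replicate 1 (-0.94) or posterior replicate 2 (-0.90) and missed the adjusted p with the myelin list as a covariate (0.147).

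The called genes were then followed in arrays of other regions, a comparison chosen after the data were seen that uses none of the 4 amygdala arrays. The mean of the medial preoptic area and the dorsomedial, ventromedial and arcuate hypothalamic nuclei was set against the mean of the piriform cortex and ventral subiculum, the cortical neighbours of the amygdala. Of the 105 genes called higher in the anterior amygdala, 68 (64.8%) were called higher in the hypothalamic group, beside 2.4% of all genes, and 0 were called higher in the cortical neighbours. Of the 42 genes called higher in the posterior amygdala, 28 (66.7%) were called higher in the cortical neighbours, beside 2.28% of all genes, and 1, Trh, in the hypothalamic group. Irs4 differed by 5.50 ± 0.17 between these regions, Calcr by 4.26 ± 0.19 and Gpx3 by 3.61 ± 0.09, while Slc17a7 differed by -4.56 ± 0.16 and Ccn3 by -3.98 ± 0.18. Penk (0.24 ± 0.16), Sst (0.61 ± 0.18), Tac1 (0.90 ± 0.19) and Foxp2 (0.90 ± 0.15) were not called there. None of the 6 called myelin genes was among the 68, and Mbp differed by 0.03 ± 0.10.

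Against the striatum the split was less uniform. With the lateral and medial caudate putamen in place of the hypothalamic group, 32 of the 105 genes were called higher in the striatum and 12 lower, beside 2.14% and 2.55% of all genes. Penk (3.97 ± 0.19), Foxp2 (3.42 ± 0.18) and Tac1 (3.26 ± 0.22) were among the 32, and Slc17a6 (-3.70 ± 0.17) and Cartpt (-1.37 ± 0.15) among the 12. Of the 42 posterior genes, 7 were called higher in the striatum and 17 higher in the cortical neighbours.

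**Figure D4:**
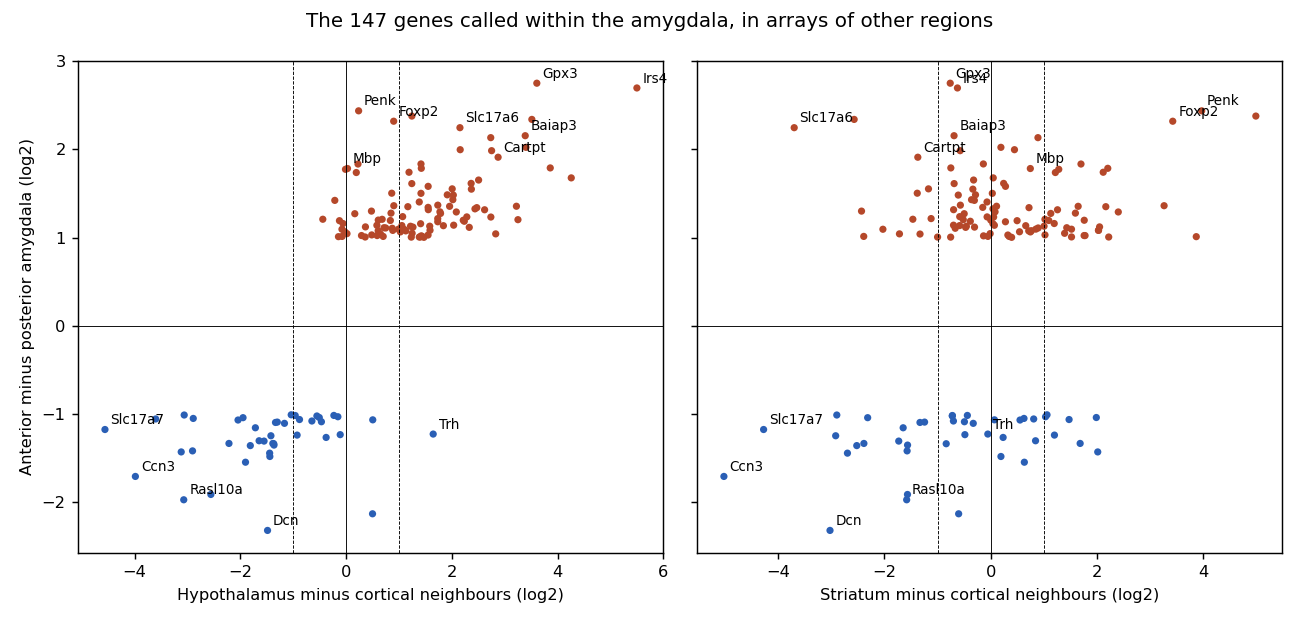
The 147 called genes, with their log2 difference between anterior and posterior amygdala on the vertical axis and, on the horizontal axes, their difference between 4 hypothalamic regions and 2 cortical neighbours (left) or between 2 striatal regions and the same neighbours (right); dashed lines mark 2-fold. On the left 68 of the 105 anterior genes were called to the right and 28 of the 42 posterior genes to the left, while on the right Penk and Slc17a6 lie at 3.97 and -3.70.

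Levels in single regions show the same genes in place. Baiap3 read 11.63 and 11.58 in the arrays of the medial preoptic area and 7.90 and 7.86 in those of the piriform cortex, with the anterior amygdala at 10.83 ± 0.14 and the posterior at 8.67 ± 0.09. Nts was highest in the medial preoptic area (11.60) against 9.71 and 8.52 in the anterior amygdala, and Penk in the medial caudate putamen (13.83). Penk read 11.46 and 11.15 in the piriform cortex, near the anterior amygdala (11.47 and 11.01), and 8.66 and 7.99 in the ventral subiculum. Slc17a6 likewise read 10.05 and 10.15 in the piriform cortex and 8.88 and 8.42 in the ventral subiculum.

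**Figure D5:**
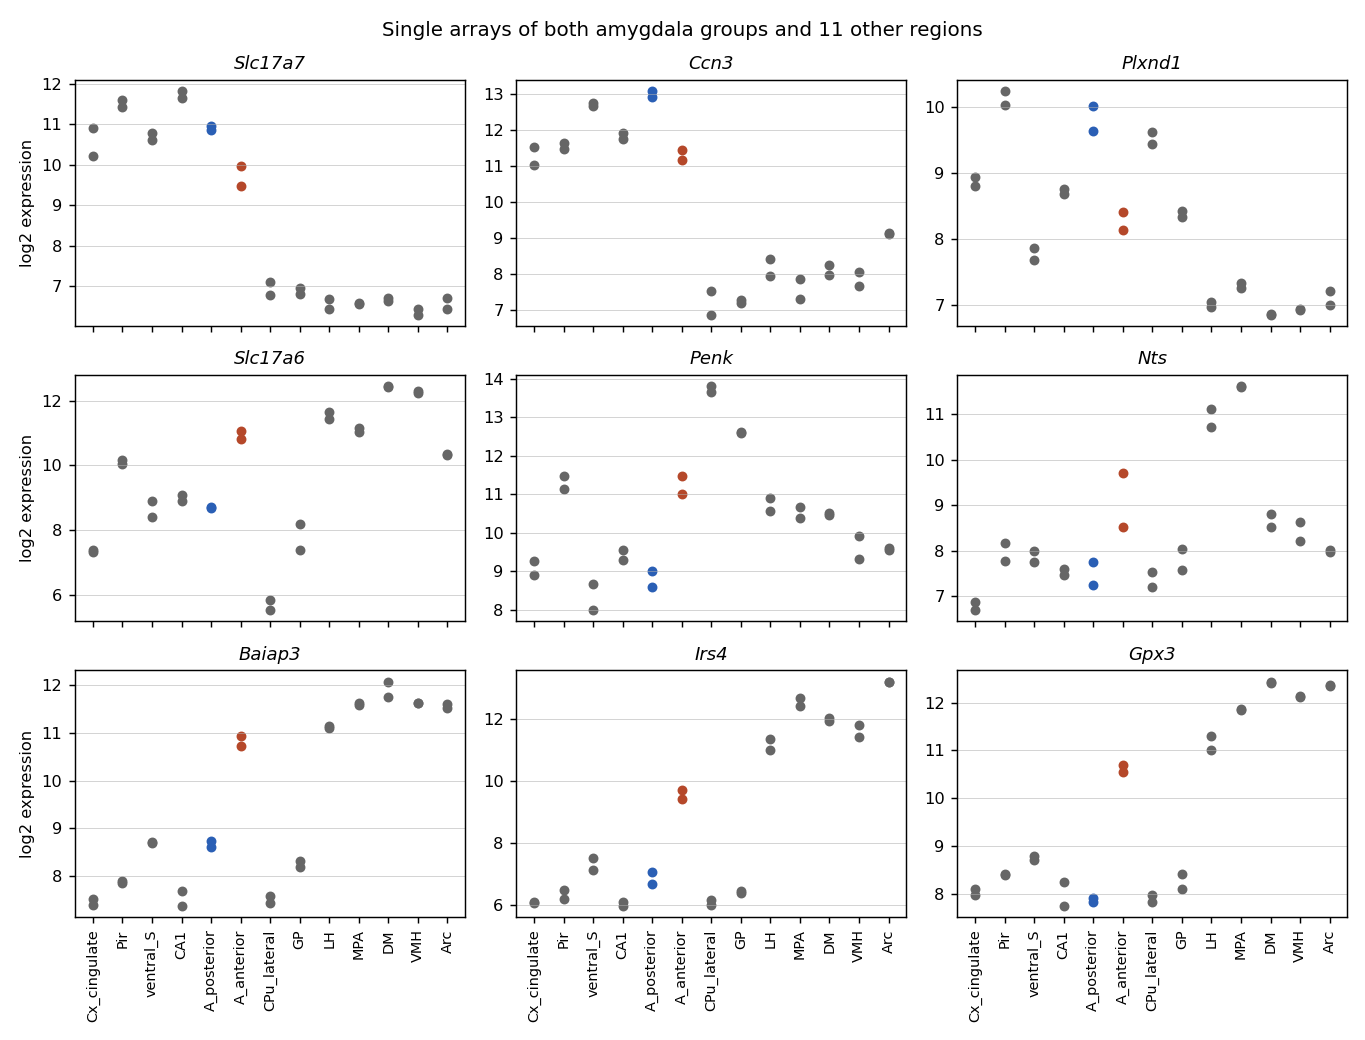
Log2 expression of 9 genes in both arrays of the anterior amygdala (red), the posterior amygdala (blue) and 11 other regions, each panel with its own scale. Slc17a7, Ccn3 and Plxnd1 are higher in the posterior arrays; Slc17a6, Penk, Nts, Baiap3, Irs4 and Gpx3 are higher in the anterior arrays.

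Each part was also compared with its neighbours, with counts in either direction that share the neighbour's arrays. The ventral subiculum differed from the anterior amygdala in 216 genes (1.19%) and from the posterior amygdala in 194 (1.07%), the piriform cortex in 416 (2.29%) and 260 (1.43%). The arrays labelled lateral hypothalamus, which hold the highest Lhx8 of the 52 regions, a gene of forebrain cholinergic neurons, differed from the anterior amygdala in 413 genes (2.27%) and from the posterior in 919 (5.05%). The globus pallidus differed in 633 (3.48%) and 834 (4.58%), the lateral caudate putamen in 995 (5.47%) and 992 (5.45%), and CA1 in 881 (4.84%) and 894 (4.91%). Whether these pairs of counts differ was not tested.

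The 147 genes within the amygdala can be read beside other structures that the labels divide. The ventral and dorsal subparaventricular zone differed in 139 genes (0.764%), the anterior and posterior spinal cord in 62 (0.341%), the lateral and medial caudate putamen in 55 (0.302%), motor and cingulate cortex in 49 (0.269%), cerebellar vermis and lobe in 20 (0.11%) and the anterior and posterior olfactory bulb in 2 (0.011%). These counts were not compared under the alternatives. In 37 genes (0.203%) both posterior arrays exceeded all arrays of the other regions, rank 24 of 52 regions for this count, whose median over regions was 34.5. Of these 37, 30 led the next region by under 0.25 and 2, Apaf1 and Ccn3, were called between the parts. Both anterior arrays exceeded all others in 2 genes, Nxph2 and Usp13, rank 50 of 52. Acvr2a, an activin receptor, reached 11.71 ± 0.20 in the posterior amygdala, with the anterior amygdala next at 10.91 ± 0.23, and Trhr, the receptor for thyrotropin-releasing hormone, reached 9.39 ± 0.14 with the anterior amygdala next at 8.78 ± 0.35. For both genes the 2 parts of the amygdala ranked first and second, with differences between them of -0.79 (limma adjusted p = 0.000236) and -0.61 (0.128).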

How the data were processed

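RNA from 52 regions, 2 arrays each, was hybridised to Affymetrix mouse arrays. The authors deposited RMA values in log2 units, per the submitters' processing notes, which give no RMA version; they ran from 3.88 to 15.15 and were used as deposited. Of 45101 probe sets, 34945 named a single gene, 932 several and 9160 none, and 64 were controls. Each of 18193 genes was represented by its probe set with the highest mean over all arrays.

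A mean per region was fitted in limma 3.58.1 (R 4.3.3), with 52 residual and 7.87 prior degrees of freedom and a median SE of 0.12 for the difference. Tests were two-sided, with Benjamini-Hochberg adjustment over all genes, and a call needed an adjusted p under 0.05 and 2-fold. The procedure was tested on simulated data. Covariates from control probe sets were fitted without the preoptic area arrays, whose control rows look displaced.

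Members, the 27 lists (532 genes, 487 measured) and the naming rule were chosen with earlier results of these data known. Genes named were the 15 largest called per direction with a mean of at least 7.39 in the higher group, groups apart and no provisional symbol, called list members, and up to 4 of the brightest uncalled members per list, with Rspo2 and Ppp1r1b always; others are named as seen afterwards, as are Satb1, Prkcd, Lhx2, Pcdh8, Ucn3, Acvr2a and Trhr. Alternatives were other scalings, filters, probe set rules, arrays, variance models, a replicate block, covariates and leaving out arrays.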

Additional observations from a re-analysis of the deposited data

Results flagged for a closer look

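Data outside the gene comparison also differed between the 2 groups. Of 10092 probe sets that name no single gene, 32 were called higher in the anterior and 12 higher in the posterior amygdala, by the same rule in limma, and they were not analysed further. The control probe set for the 5' part of 18S ribosomal RNA, which is no gene of the comparison, differed by -3.54 ± 0.63 on the log2 scale (limma adjusted p = 8e-05), higher in both posterior arrays (10.82 and 10.16 against 7.24 and 6.66). Over the other arrays this probe set ran from 6.73 to 13.34. With the 18S control probe sets as a covariate, chosen after seeing the data, 114 genes were called higher in the anterior amygdala, 93 of them among the 105, and 38 in the posterior, 30 of them among the 42.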

How the results depend on the processing

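Counts of called genes, 105 higher in the anterior and 42 in the posterior amygdala, were 116 and 37 after array centring, 108 and 47 after quantile normalization, 96 and 40 without dim genes, 88 and 39 from the 4 amygdala arrays alone, and 126 and 39 with 3' to 5' control ratios as covariates. The mean of all probe sets of a gene gave 60 and 33, of which 57 and 25 were among the 105 and 42, each probe set tested separately gave 168 and 75 genes, and adjusted p alone 952 and 579. Leaving out an array in turn gave 91 to 158 higher in the anterior and 23 to 72 in the posterior amygdala: 158 without anterior replicate 1, 72 without posterior replicate 1 and 23 without posterior replicate 2. A lone array is then assumed to vary like the other regions. With the replicate number as a block, the counts were 105 and 42, also when fitted with the 4 amygdala arrays paired. The numbers share no label beyond the number, and same-numbered arrays deviated together at r = 0.01 over genes. With 2 arrays per group this correlation cannot show whether same-numbered samples came from the same animals. Differences near 2-fold and means under 7.39 are the least certain.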

Other observations

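Other called genes, named after their values were seen, add to the groups described. Adcyap1, the precursor of the peptide PACAP, lay at 9.69 and 9.67 in the anterior and at 8.12 and 8.27 in the posterior arrays (1.49 ± 0.15, limma adjusted p = 2.57e-11), with its second probe set at 2.19. Pnoc, the precursor of nociceptin, lay at 8.53 and 8.45 against 7.26 and 7.04 (1.34 ± 0.16), and Resp18, a protein of peptide-secreting cells, at 12.26 and 12.33 against 11.18 and 11.32 (1.04 ± 0.18). The replicates of these 3 genes were close and the groups apart. Resp18 fell short of 2-fold after quantile normalization (0.97) and without posterior replicate 1 (0.97). Glra2, a glycine receptor subunit, was 1.40 higher in the anterior amygdala, which ranked 4 of 52 regions for it. Fgf1, a fibroblast growth factor, was 1.58 higher there, beside its receptor gene Fgfr1, and the mean of its 3 probe sets was 0.87. Ptch1, the receptor for hedgehog proteins, was at 1.14 and at 0.66 as the mean of its probe sets.

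On the posterior side, Met, the receptor for hepatocyte growth factor, lay at 7.36 and 8.22 against 6.58 and 6.84 in the anterior arrays (-1.09 ± 0.17), with its second probe set at -2.14. Met was at -0.95 without anterior replicate 1, at -0.66 without posterior replicate 2 and at -0.86 with the myelin list as a covariate, and its call also ended in the 4 amygdala arrays alone. Dab1, an adaptor of reelin signalling, was at -1.09, and at -0.90 without posterior replicate 2, at -0.94 with 18S as a covariate and at -0.73 when its probe sets were averaged. Apaf1, which builds the apoptosome, lay at 9.19 and 9.35 in the posterior arrays, above every other region, the piriform cortex being next at 8.41. Its anterior arrays lay far apart, at 8.56 and 7.83, and its difference of -1.08 was -0.72 without anterior replicate 2, -0.93 with 3' to 5' control ratios as covariates and -0.85 when its probe sets were averaged, and just under 2-fold without posterior replicate 2.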
